A study of Mus musculus with 45 samples.

Results

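YEJG and YEJH are the 2 parental mammary tumour lines of this series, and the 3 libraries of YEJG were compared with the 3 libraries of YEJH. Libraries were chosen by their cell line label alone, which gave 6 of the 45 libraries in the series. The study asked whether tumour cells alter *Upp1*, the enzyme that splits uridine into uracil, as mammary cancer spreads to the lung, and it sequenced RNA of *PyMT*+ cell lines of different origin. Lines grown out of fat-pad tumours or lung micrometastases of these 2 parents (3 from YEJG and 10 from YEJH) entered the comparison only where stated. YEJG and YEJH share their genotype label: both are *PyMT*+ lines, and their source is given as primary tumour of the mammary gland. In the MMTV-*PyMT* mouse, kept by the study on the FVB/N background, the mouse mammary tumour virus promoter drives the polyomavirus middle T antigen in mammary epithelium. Both lines were untreated and were plated the day before lysis, and polyadenylated RNA was sequenced. The labels give no age and no clone, and each line is 1 line. For the fat-pad and lung lines that it plotted, the study describes technical triplicates averaged per line. Nothing states that the 3 libraries of a parental line came from separate cultures. All p-values below therefore compare these 2 lines and measure only the spread between libraries of a line.

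Middle T antigen is a membrane-bound viral protein that recruits Src family kinases, phosphoinositide 3-kinase and Shc, and so mimics a constantly active growth factor receptor. The tumours it starts come from the mammary epithelium, whose inner layer of luminal cells carries keratins 8 and 18 and whose outer basal layer carries keratins 5 and 14. Tumour cells of the same transgene can differ in differentiation and in chromosome content, and interferon-stimulated genes can be active in tumour cells without infection.

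Library names gave 2 runs, called A and B here, and the runs were not balanced: YEJG had 2 libraries in run A and 1 in run B, YEJH 1 in run A and 2 in run B. Run was therefore a covariate in the test. Reads counted on genes ranged from 11357791 to 16346850 over the 6 libraries. Among the 6 epithelial markers that define the labelled tissue, *Epcam* held between 8544 and 9815 normalised read counts in the 6 libraries, *Krt8* between 25569 and 46172 and *Krt18* between 21320 and 26586. Of these 6 markers only *Krt19* differed between the lines, and *Cdh1* and *Krt7* did not pass the test. *Xist* was present in all 6 libraries and the 4 Y-linked genes examined were at 0. All 5 adipocyte markers, 5 of 10 leukocyte markers, 4 of 9 fibroblast markers, 4 of 7 endothelial markers and 5 of 7 lung epithelial markers were at 0 in all 6 libraries. The lung list still summed to 213 to 370 normalised read counts in YEJG and 205 to 274 in YEJH, held by *Ager* and *Foxj1*.

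Of 12631 genes expressed enough to be tested, 1111 (8.80%) passed a threshold of 0.05 in edgeR's quasi-likelihood test after Benjamini-Hochberg adjustment. YEJG was higher for 370 of them (2.93% of genes tested) and lower for 741 (5.87%). A difference of at least 2-fold was found for 493 genes (3.90%), with 115 higher in YEJG (0.910%) and 378 lower (2.99%). Thus 33.3% of the called genes were higher in YEJG, while the median log2 fold change of all genes tested, YEJG over YEJH, was 0.0073. All 1111 genes differed in 1 direction within run A and within run B, which their call from these same libraries favours. The number of calls depended on single libraries, since it was 533 without YEJG library 1, 470 without YEJG library 3, 1967 without YEJH library 1, and 45 or 48 without YEJG library 2 or YEJH library 2, each of which is the only library of its line in its run. With the library number as a replicate block beside run, 2934 genes passed (1234 higher, 1700 lower), and all 1111 were among them.

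Many interferon-stimulated genes and genes of class I antigen presentation were lower in YEJG. Interferon receptors act through transcription factors on a short GAAA-rich promoter element, and the induced proteins block viral RNA or load peptides on class I molecules for display to T cells. Of 37 such genes listed, 30 were tested, and 18 (60.0%) were lower in YEJG and 0 higher, against 5.87% and 2.93% of all genes tested. The median log2 fold change of the 30 was -0.79, against 0.0073 over all genes, and 26 of the 30 lay below 0. With the replicate block 19 of the 30 were lower and 1 higher. None of the 30 lies on chromosome 7, whose genes as a whole were lower in YEJG (described below).

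To show a sequence that some members hold and others lack, the 150 bases before the transcription start are given for 5 of the lower genes. They are from RefSeq on GRCm38.p6. Each runs 5′ to 3′ on the strand of its gene, and capitals mark GAAANN followed by GAAA, read on either strand, which is the core of the interferon-stimulated response element.
*Ifit1* (chr19:34640739-34640888, forward strand): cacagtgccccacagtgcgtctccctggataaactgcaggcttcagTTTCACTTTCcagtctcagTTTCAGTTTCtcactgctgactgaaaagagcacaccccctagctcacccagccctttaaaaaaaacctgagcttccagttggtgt
*Isg15* (chr4:156200819-156200968, reverse strand): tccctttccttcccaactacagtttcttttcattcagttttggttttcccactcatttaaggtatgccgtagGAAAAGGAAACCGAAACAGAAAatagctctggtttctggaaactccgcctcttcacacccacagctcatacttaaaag
*Rsad2* (chr12:26456453-26456602, reverse strand): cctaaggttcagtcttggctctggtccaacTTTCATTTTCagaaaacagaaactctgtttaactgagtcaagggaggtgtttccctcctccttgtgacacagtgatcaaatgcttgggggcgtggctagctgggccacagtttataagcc
*Gbp2* (chr3:142620513-142620662, forward strand): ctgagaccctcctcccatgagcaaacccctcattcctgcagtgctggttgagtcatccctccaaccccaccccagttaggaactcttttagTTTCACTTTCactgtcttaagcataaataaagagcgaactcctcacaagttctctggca
*Tap1* (chr17:34187406-34187555, forward strand): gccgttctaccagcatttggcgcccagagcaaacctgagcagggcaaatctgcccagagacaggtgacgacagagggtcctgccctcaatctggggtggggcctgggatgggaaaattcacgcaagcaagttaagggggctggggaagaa
In *Isg15* 3 overlapping matches form 1 run, *Ifit1* has 2 separate matches, *Rsad2* and *Gbp2* have 1 each, and these letters are not in the *Tap1* window. Over the full 300 bases of the RefSeq table (250 before to 50 after the start), 7 of the 14 lower genes with an entry held a match, as did 4 of the 10 listed genes that were tested and not called. Of all 32851 promoters in the table, 3.44% held one.

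*Oasl1*, which restrains translation of *Irf7*, had 33.2, 27.6 and 10.7 normalised read counts in the YEJG libraries and 314, 275 and 184 in the YEJH libraries. The log2 fold change was -3.44 (SE 0.38, adjusted p = 0.00265, edgeR). *Rsad2*, whose product viperin makes a chain-terminating nucleotide that blocks viral polymerases, had 4.43, 8.49 and 5.82 against 67.2, 50.1 and 55.4. Its log2 fold change was -3.05 (SE 0.28, adjusted p = 0.00144, edgeR). Also lower were *Oasl2*, *Ifit1*, *Rtp4*, *Gbp3* and *Gbp2*, with log2 fold changes between -3.06 and -1.39, the RNA sensors *Ifih1* (-1.62) and *Rigi* (-0.64), and *Sting1* (-0.57), the adaptor of cytosolic DNA sensing. For the ubiquitin-like *Isg15*, the libraries held 60.9, 69.0 and 43.6 in YEJG and 181, 197 and 148 in YEJH.

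Within class I presentation, *Tap1* and *Tap2*, which together form the peptide transporter, had log2 fold changes of -2.42 (SE 0.40) and -1.65 (SE 0.27), and both passed the test. *Tap1* held 16.6, 9.55 and 6.79 normalised read counts in YEJG and 73.0, 59.1 and 39.6 in YEJH. Tapasin (*Tapbp*, -0.65) and the heavy chains *H2-D1* (-0.58) and *H2-Q4* (-1.02) were also lower, while *H2-K1* (-0.26, adjusted p = 0.143, edgeR) and the light chain *B2m* (-0.14, adjusted p = 0.388) did not pass. The transcription factor *Irf1* was lower by 0.72 on the log2 scale, whereas *Irf9* had 0.018 (adjusted p = 0.969) and *Stat2* -0.083 (adjusted p = 0.913). Class I heavy chains, the *Gbp* genes and the *Oasl* pair are close copies of other genes, and *Tapbp*, *Irf1* and *Isg15* share 52.8%, 46.0% and 31.1% of their exon bases with other genes, so their reads may be split or shared. Summed leukocyte markers were 43.2 to 57.3 normalised read counts in YEJG and 54.5 to 60.1 in YEJH, and *Itgam*, *Adgre1*, *Lyz2* and *Cd3e* were at 0 in all 6 libraries.

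**Figure D1:**
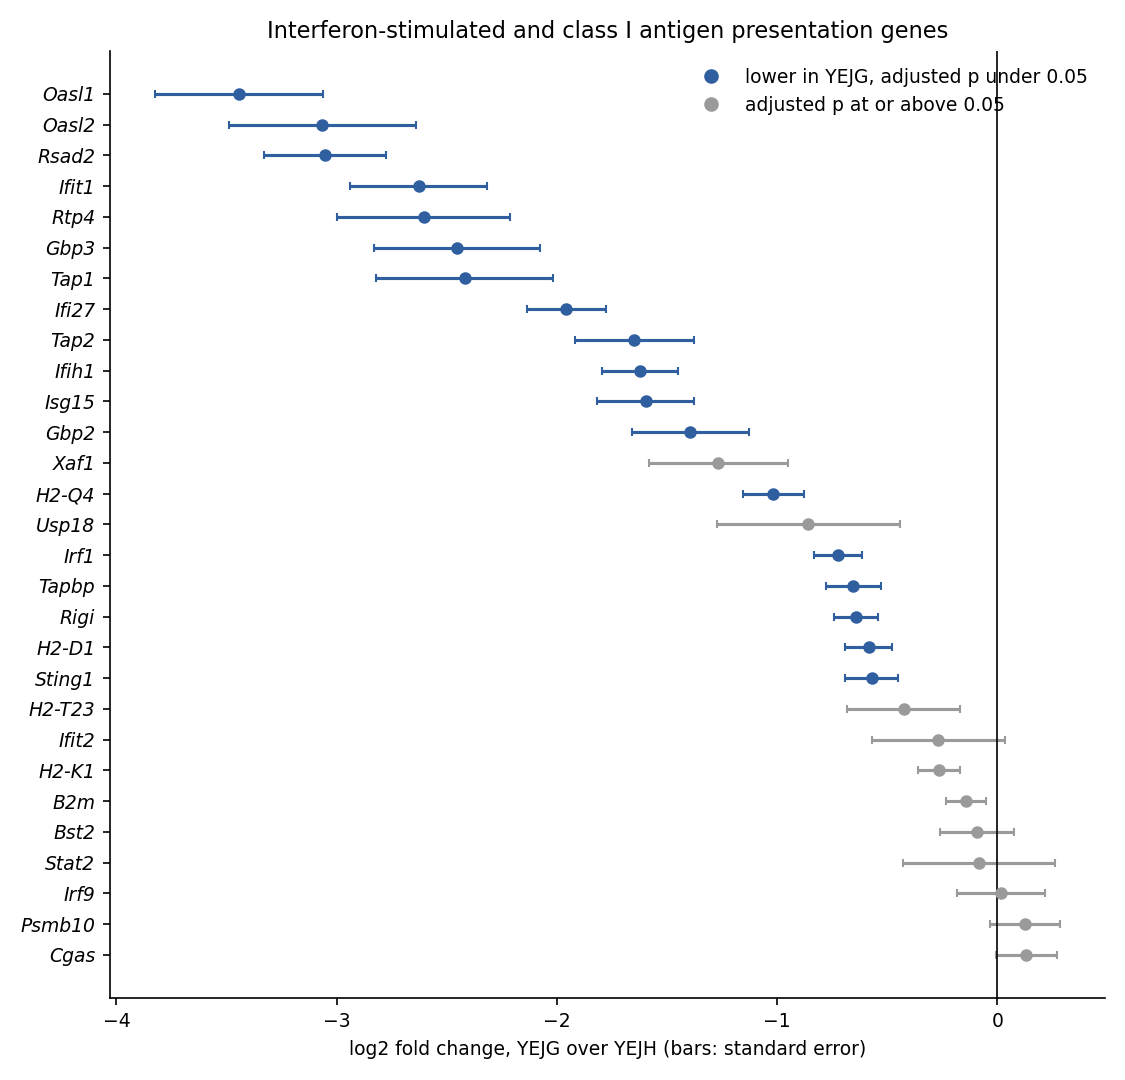
Log2 fold change (YEJG over YEJH) of 29 of the tested interferon-stimulated and class I genes, 1 point per gene with its standard error, blue where adjusted p was under 0.05. The 18 called genes all lie left of 0, from *Oasl1* at -3.44 to *Sting1* at -0.57.

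By size of difference, the leading protein-coding genes higher in YEJG included a Wnt ligand, a signalling adaptor and genes of keratinised epithelium. Leading genes in both directions were required to have no overlap between the lines. Their separation by library is therefore not a result. *Wnt10a*, a canonical Wnt ligand, had 186, 190 and 183 normalised read counts in YEJG and 5.80, 5.01 and 7.91 in YEJH. Its log2 fold change was 4.88 (SE 0.21, adjusted p = 8.79e-05, edgeR).

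*Gab1*, a docking protein that carries signals from receptor tyrosine kinases to phosphoinositide 3-kinase and Shp2, had 1059, 968 and 911 in YEJG against 91.6, 94.2 and 88.6 in YEJH (log2 fold change 3.41, SE 0.12, adjusted p = 3.59e-05). *Dok2*, an adaptor that damps such signals, had 96.4, 110.4 and 103 against 25.5, 19 and 24.5 (2.24, SE 0.18). Both adaptors were thus several-fold higher in YEJG. *Tgm1*, which crosslinks the envelope of keratinocytes, had 391, 334 and 360 against 19.7, 21.1 and 13.5, and *Krt6a*, a keratin of stressed and wound-edge epithelium, 2034, 2437 and 2415 against 430, 434 and 248. Their log2 fold changes were 4.27 (SE 0.18) and 2.61 (SE 0.23). *Krt6a* has a close copy in *Krt6b* and shares 24.9% of its exon bases with other genes.

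The cartilage proteoglycan gene *Acan* reached 1075, 1103 and 1301 in YEJG and 148, 116 and 91.8 in YEJH (log2 fold change 3.28, SE 0.20). *Acan* lies on chromosome 7 and so moved against most genes there. The homeobox gene *Shox2* (3.21, SE 0.30), the neuronal tubulin *Tubb3* (2.92, SE 0.28), the mitochondrial adenylate kinase *Ak4* (2.28, SE 0.21), the interleukin 18 receptor chain *Il18r1* (2.25, SE 0.18) and the integrin chain *Itgb7* (2.10, SE 0.24) were also among the leading genes.

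The 12 leading genes lower in YEJG included adhesion receptors, cytoskeletal proteins and a DNA repair enzyme. *Gprc5c*, an orphan receptor of the retinoic acid-induced group, had 0 reads in each YEJG library and 136, 131 and 138 in the YEJH libraries, at least 124-fold lower when 3 reads over the 3 YEJG libraries are taken as the floor. The adhesion receptor *Adgre5* (CD97) had 5.54, 2.12 and 1.94 normalised read counts in YEJG and 218, 163 and 162 in YEJH (log2 fold change -5.74, SE 0.34, adjusted p = 0.000438, edgeR), although 49.8% of its exon bases are shared with other genes. A second adhesion receptor, *Adgrg3*, had 17.7, 9.55 and 18.4 against 165, 115 and 123 (-3.11, SE 0.30).

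*Npnt*, a basement membrane ligand of integrin α8β1, had 23.3, 22.3 and 18.4 in YEJG and 547, 500.2 and 498 in YEJH (-4.57, SE 0.15, adjusted p = 3.59e-05). The intermediate filament gene *Nes* had 72.0, 93.4 and 81.4 against 1061, 1168 and 1117 (-3.74, SE 0.14, adjusted p = 3.59e-05), and *Dbn1*, which encodes an actin-bundling protein, 28.8, 20.2 and 19.4 against 231, 169 and 175 (-3.03, SE 0.24). *Wtip*, an Ajuba-family adaptor of cell junctions, had 23.3, 6.37 and 9.70 against 438, 381 and 349 (-4.97, SE 0.34).

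*Mgmt*, the methyltransferase that removes alkyl groups from guanine, had 44.3, 55.2 and 37.8 against 472, 402 and 328 (log2 fold change -3.08, SE 0.21, adjusted p = 0.000736). *Wtip* and *Mgmt* both lie on chromosome 7. *Ulbp1*, a stress-induced ligand of the NKG2D receptor of natural killer cells, had 37.7, 48.8 and 44.6 against 351, 378 and 486 (-3.15, SE 0.19). *Enpp1* (-3.11, SE 0.20), whose ectoenzyme hydrolyses ATP and cyclic GMP-AMP, and the potassium channel tetramerisation gene *Kctd12b* (-5.92, SE 0.59) were lower as well.

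**Figure D2:**
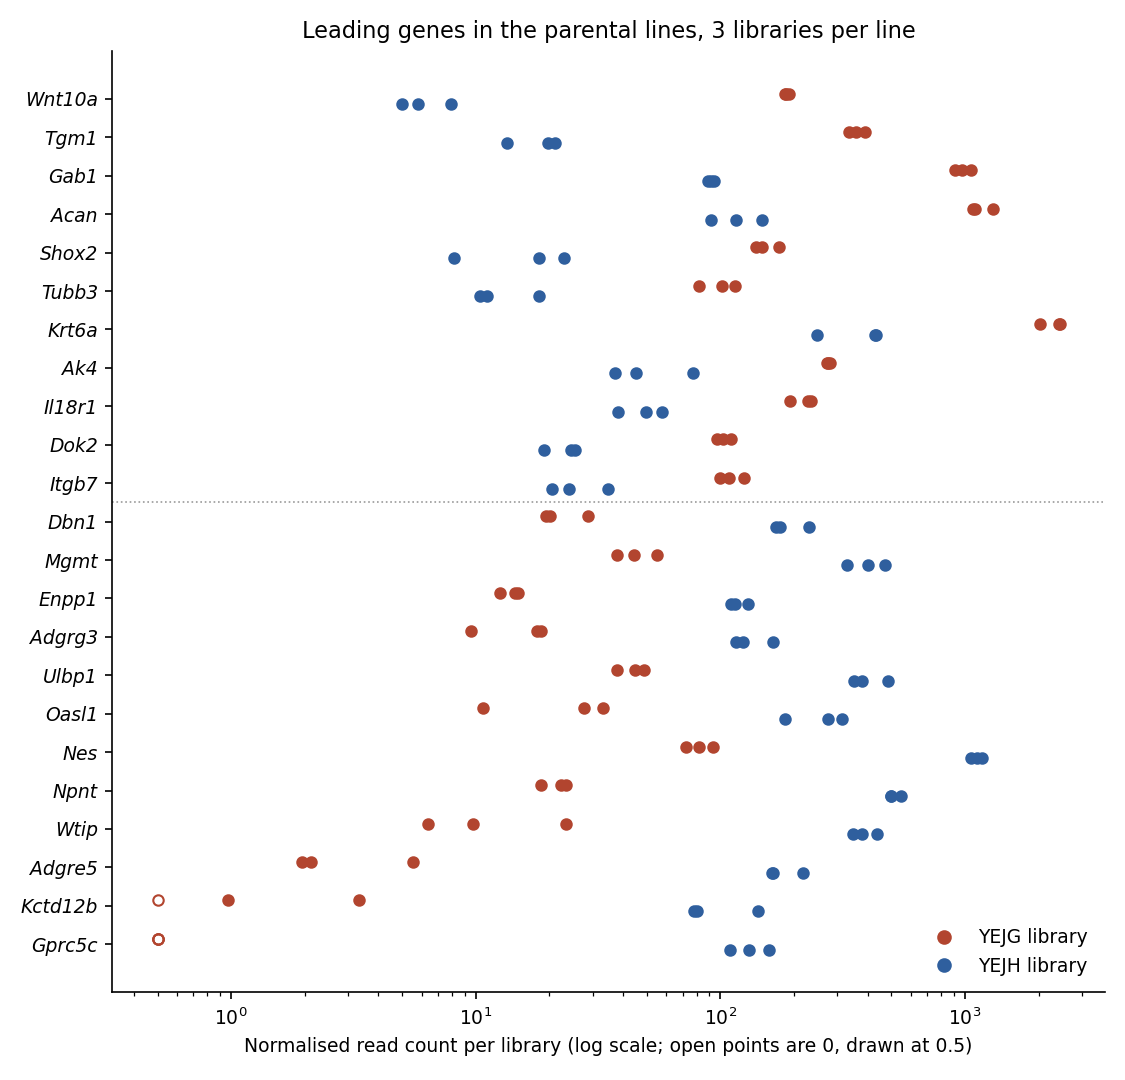
Normalised read counts (log axis) of 23 leading genes, 1 point per library, with YEJG in red and YEJH in blue and libraries at 0 drawn open at 0.5. The 11 genes above the dotted line were higher in YEJG and the 12 below it lower. All 23 were chosen to have no overlap between the lines.

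At least 2-fold differences included genes with no read in any library of one line. Of these, *Dlx2* and *Tgif2* were at 0 in YEJH, and *Gprc5c*, *Hexa*, *Mmp25*, *Prrx1*, *Spon1*, *Tmem30b* and *Tram1l1* in YEJG. Besides *Gprc5c*, for these genes the line with reads had between 34 reads over its 3 libraries (*Spon1*) and 105 (*Dlx2*), and the lower bounds on the fold ran from 10.4 (*Spon1*) to 38.0 (*Dlx2*). *Dlx2* and *Tgif2* encode homeodomain proteins, and *Prrx1* one that marks mesenchymal cells. In *Hexa*, which encodes the alpha chain of lysosomal β-hexosaminidase, 26, 28 and 39 reads were counted in YEJH, whereas lines derived from YEJG averaged between 2.76 and 337 normalised read counts.

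Some basal genes were higher in YEJG, and more genes of mesenchymal transition were lower than higher. Of 8 basal and myoepithelial genes tested, 4 (50%) were higher and 0 lower, with a median log2 fold change of 0.56. Over all genes tested, 2.93% were higher and 5.87% lower. *Krt14*, the basal keratin, had 17589, 18832 and 17352 normalised read counts in YEJG and 11617, 9629 and 7811 in YEJH (log2 fold change 0.91, SE 0.15, adjusted p = 0.0139, edgeR). *Col17a1*, the hemidesmosome collagen (1.10), and the desmosomal cadherin *Dsg3* (0.76) were the others beside *Krt6a*. However, 12 of the 20 basal genes listed, among them *Krt5*, *Trp63* and *Acta2*, were too low in these libraries to be tested.

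Of 18 luminal genes tested, 1 was higher (*Elf3*, an epithelial transcription factor, 0.78) and 2 were lower, namely *Krt19* (-0.59) and the tight junction gene *Cldn4* (-0.59), with a median of -0.011. Among 9 mammary differentiation genes tested, *Aldh1a3* was higher (1.40) and *Cd14* lower (-0.60). The shares over all genes tested were 2.93% higher and 5.87% lower. The milk genes and *Pgr*, *Elf5* and *Kit* fell below the expression filter, so they could not be compared.

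Of 15 genes of mesenchymal transition, 6 (40.0%) were lower and 2 (13.3%) higher, against 5.87% and 2.93% of all genes tested. Their median was -0.69. *Cdh2* (N-cadherin) had 587, 581 and 630 normalised read counts in YEJG and 2120, 2417 and 2485 in YEJH, a log2 fold change of -1.99 (SE 0.11, adjusted p = 0.000389). *Twist2*, a basic helix-loop-helix repressor of epithelial genes, had 16.6, 23.4 and 19.4 against 82.3, 102 and 55.4 (-2.07, SE 0.29). *Prrx1*, *Zeb1* (-1.04), *S100a4* (-0.67) and *Twist1* (-0.67) were the other lower genes. The 2 higher members are matrix proteins, *Sparc* at 101, 87.0 and 87.3 against 26.7, 28.1 and 41.9 (1.5, SE 0.24) and *Tgfbi* (0.95). *Vim* (-0.019, adjusted p = 0.960) and *Snai1* (-0.78, adjusted p = 0.0520) did not pass. Summed fibroblast markers were 22.3 to 30.1 in YEJG and 34.1 to 53.8 in YEJH, and *Col3a1*, *Dcn*, *Lum* and *Thy1* were at 0 in all 6 libraries.

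Matrix-degrading enzymes and their inhibitors were more often lower in YEJG. Of 35 tested, 10 (28.6%) were lower and 2 (5.71%) higher, against 5.87% and 2.93% of all genes tested. The median log2 fold change was -0.50. The lower genes were 7 proteases and 3 inhibitors, and both higher genes were inhibitors. Among the lower proteases were the stromelysins *Mmp3* (65.4, 58.4 and 57.2 against 195, 145 and 135, log2 fold change -1.36) and *Mmp10* (-1.21), the membrane-type collagenase *Mmp14* (-0.58), the sheddases *Adam10* (-1.08), *Adam8* (-1.17) and *Adam12* (-0.81), and the kallikrein *Klk8* (-0.84). *Serpine2*, which inhibits thrombin and urokinase, was lower as well (86.4, 75.4 and 70.8 against 435, 358 and 320, -2.25, SE 0.18), as were the inhibitors *Slpi* (-0.94) and *Timp2* (-0.50). The other 2 tissue inhibitors tested were higher, with *Timp3* at 7749, 7771 and 7474 in YEJG and 4724, 4775 and 4456 in YEJH (0.72, SE 0.09) and *Timp1* at 0.58. Of the 10 lower genes, 3 lie on chromosome 7.

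Most integrins and adhesion adaptors did not pass the test. Of 26 tested, 2 were higher (7.69%) and 2 lower (7.69%), against 2.93% and 5.87% of all genes tested. The collagen receptor chain *Itga2* had 574, 710.1 and 655 normalised read counts in YEJG and 2190, 2398 and 2905 in YEJH (log2 fold change -1.90, SE 0.14, adjusted p = 0.00087, edgeR), and the focal adhesion gene *Parva* was lower by 0.52. *Itgb7* and the talin gene *Tln2* (0.74) were higher. Of 27 matrix and basement membrane genes, *Col5a1*, a fibrillar collagen chain, was higher (60.9, 96.6 and 71.8 against 10.4, 19 and 23.7, 2.16, SE 0.30), and *Loxl3* (-1.67) and *Col12a1* (-0.62) were lower.

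Several Wnt pathway genes were lower in YEJG and 1 ligand was higher, while most did not pass the test. Wnt ligands bind frizzled receptors and stabilise β-catenin, which induces feedback inhibitors such as *Axin2* and *Notum*. Of 31 tested, 9 (29.0%) were lower and 1 (3.23%), the ligand *Wnt10a*, was higher, with a median of -0.16. All genes tested gave 5.87% lower and 2.93% higher. The ligands *Wnt5b* (-1.28) and *Wnt11* (-1.92) were lower, and so were the receptors *Fzd4* (-1.77), *Fzd7* (-1.19) and *Fzd5* (-0.87), the acyltransferase *Porcn* that Wnt secretion needs (-0.81) and the secreted decoy *Sfrp1* (-1.43). Of the feedback genes, *Axin2* had 27.7, 14.9 and 17.5 normalised read counts in YEJG against 177, 155 and 125 in YEJH (log2 fold change -3.00, SE 0.27, adjusted p = 0.00141). *Notum*, a lipase that strips the acyl group from Wnt proteins, had 653, 754 and 692 against 2057, 1697 and 1395 (-1.26, SE 0.16). In both genes the lowest YEJH library was above the highest YEJG library, a separation that their call in the same libraries favours. *Notum* shares 48.7% of its exon bases with other genes, and *Fzd4* and *Wnt11* lie on chromosome 7.

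Among 31 genes of TGF-beta, activin and BMP signalling, 5 were lower (16.1%) and 2 higher (6.45%), against 5.87% and 2.93% of all genes tested. The ligand *Tgfb1* had 51.0, 40.3 and 51.4 in YEJG and 242, 184 and 212 in YEJH (log2 fold change -2.13, SE 0.19, adjusted p = 0.00141), and the ligand *Bmp4* 7.76, 6.37 and 6.79 against 32.5, 45.1 and 39.6 (-2.57, SE 0.28). The antagonists *Fstl3* (-2.10) and *Grem1* (-2.41) and the protease *Bmp1* (-0.66) were lower too, while the activin antagonist *Fst* (0.43) and the latent binding protein *Ltbp4* (1.07) were higher. *Tgfb1* and *Ltbp4* are both on chromosome 7 and differed in opposite directions. Of 13 Notch genes, the receptor *Notch1* (616, 474 and 541 against 1373, 1079.7 and 1239, -1.18) and the ligand *Jag2* (-0.98) were lower.

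In the growth factor list, 6 of 27 (22.2%) were lower and 3 (11.1%) higher, against 5.87% and 2.93% of all genes tested. The receptors *Fgfr1* (-0.73), *Igf1r* (-0.59) and *Insr* (-0.59) were lower by less than 2-fold, with *Fgfr1* at 551, 459 and 419.8 against 940.2, 758 and 684. *Nrg1* (0.52) and *Nrg2* (1.41), ligands of ErbB receptors, and *Fgfbp1*, which releases fibroblast growth factors from the matrix (0.81), were higher. Of 22 cytokines and chemokines, 4 (18.2%) were lower and 1 (4.55%) higher. *Csf1*, the macrophage growth factor, had 1406, 1242 and 1215 in YEJG and 2723, 2373 and 2226 in YEJH (log2 fold change -0.93, SE 0.12), and the chemokines *Ccl5* (-2.01) and *Cxcl2* (-1.45) and the alarmin *Tslp* (-2.83) were lower at levels below 60 in all libraries. The neutrophil chemokine *Cxcl3* was higher (2.15) with at most 16.6 in any library.

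With the 6 parental libraries alone, few genes of the metabolic lists passed the test. Pyrimidine metabolism, the pathway of the study's enzyme, had 1 of 30 tested genes lower (3.33%) and 0 higher, against 5.87% and 2.93% of all genes. Its median log2 fold change was 0.11. With the replicate block 4 were higher and 2 lower, and with all 45 libraries sharing 1 estimate of the spread 9 were higher and 5 lower. *Upp1* had 284, 293 and 282 normalised read counts in YEJG and 333, 383 and 305 in YEJH. All YEJG libraries were below all YEJH libraries, but the log2 fold change of -0.28 (SE 0.12) did not pass (adjusted p = 0.207, edgeR). Its paralogue *Upp2* lay between 5.31 and 14 in all 6 libraries (-0.62, SE 0.35, adjusted p = 0.321). The called member was *Nt5e* (CD73), the ectoenzyme that turns AMP into adenosine, at 539.5, 609 and 519 in YEJG and 1178, 1141 and 1483 in YEJH (-1.12, SE 0.12, adjusted p = 0.00246).

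Among 29 sterol and fatty acid genes, *Sqle* (0.44) and *Lss* (0.48), 2 successive enzymes of cholesterol synthesis, were higher, and the desaturase *Scd1* was lower at 65.4, 34.0 and 35.9 against 326, 296 and 321 (log2 fold change -2.85, SE 0.25). The last enzyme of that route, *Dhcr7*, was lower by 0.51. Of 26 glycolysis and hypoxia genes, *Pdk1* (1.07), *Pfkp* (0.61) and *Gapdh* (0.64) were higher and *Ldhb* (-1.97), *Car12* (-1.97) and *Ndrg1* (-0.44) lower. The *Gapdh* libraries overlapped between lines and separated by run: YEJG libraries 1 and 3 in run A had 1393 and 1280 against 896 in YEJH, and in run B YEJG library 2 had 670 against 424 and 402. *Gapdh* has many processed pseudogenes and shares 41.6% of its exon bases. In glutathione and NRF2 metabolism 2 of 33 were lower (6.06%), *Osgin1* (-0.94) and *Gstm1* (-2.90), and 0 higher. Over all genes tested 5.87% were lower and 2.93% higher, so the lower share of the glutathione list was near that of all genes. The sterol list had 2 of 29 called in each direction and the glycolysis list 3 of 26. These calls are therefore given as single genes, not as a shift of a pathway.

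Of 26 proliferation genes only the spindle checkpoint kinase *Bub1b* passed, higher by 0.41 on the log2 scale. With the replicate block 3 were higher and 4 lower, and with all 45 libraries in the fit 9 were higher and 1 lower. Among 28 cell cycle brakes and p53 targets, *Bbc3* (PUMA) had 87.5, 84.9 and 61.1 in YEJG and 198, 193 and 179.6 in YEJH (-1.27, SE 0.18), and *Trp53inp1* was also lower (-1.41). These 2 genes made up 7.14% of the list members tested, near the 5.87% lower over all genes. Of 39 *Hox* genes listed, 35 had no read in any of the 6 libraries and 1 was tested. Among 11 imprinted genes tested, *Snrpn* was higher (308, 224 and 240 against 111, 95.2 and 85.5, 1.36) and *Osbpl5* (-0.64) and *Cd81* (-0.63) were lower, and all 3 lie on chromosome 7.

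**Figure D3:**
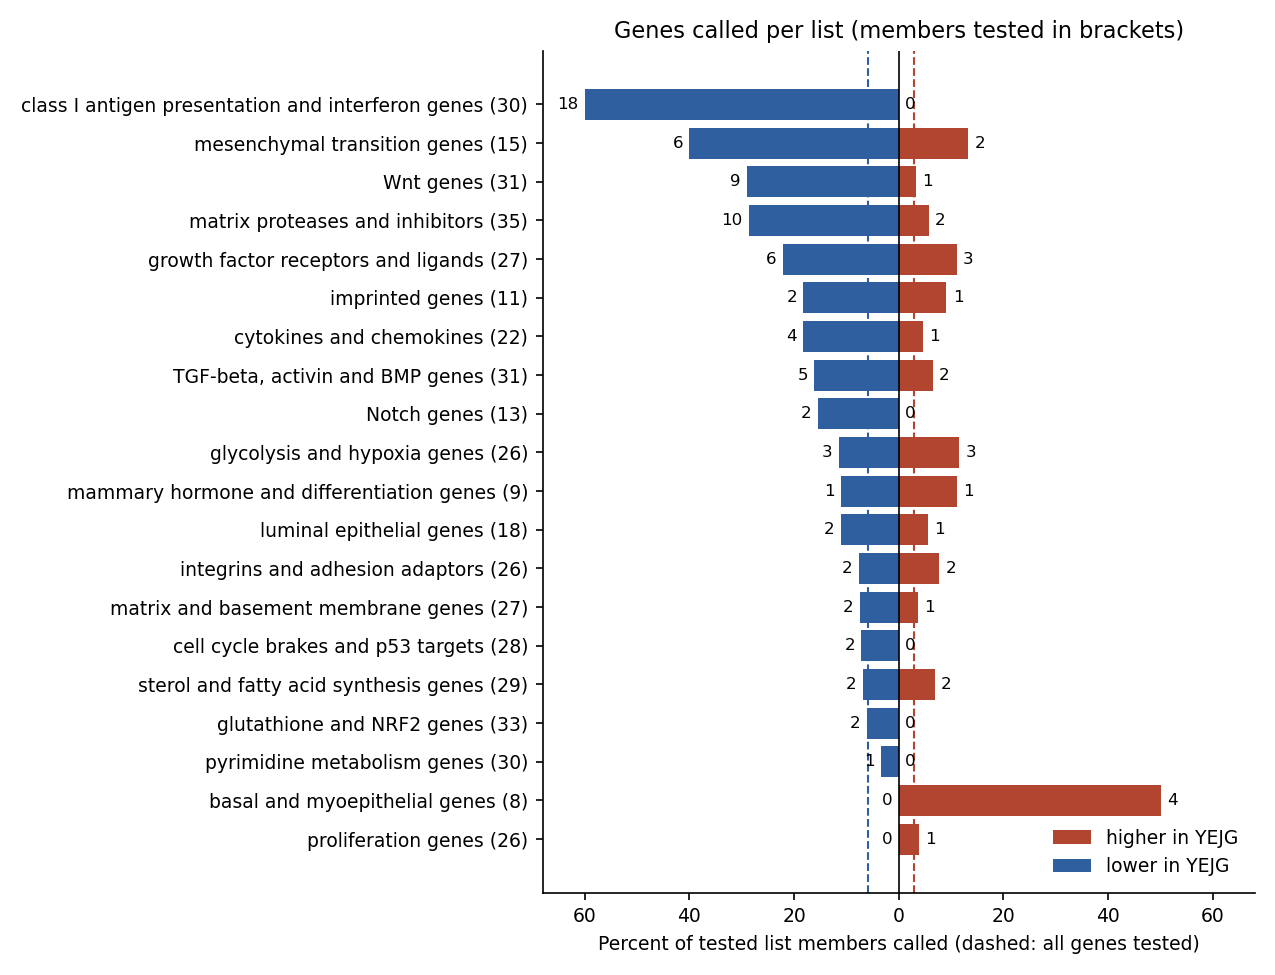
Share of the tested members of each list that was called higher (red, right) or lower (blue, left) in YEJG, in percent, with the number of genes at each bar and the share of all genes tested as dashed lines at 2.93% and 5.87%. The interferon and class I list reached 60.0% lower and the basal list, of 8 genes, 50% higher.

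The genes of chromosome 7 as a whole were shifted towards lower values in YEJG, and 119 of the 1111 called genes lay there. On chromosome 7, 105 of 959 tested genes were lower in YEJG (10.9%) and 14 higher (1.46%). Chromosome 11 was near this in calls, with 90 of 994 lower (9.05%) and 33 higher (3.32%). Over all genes tested 5.87% were lower and 2.93% higher. On chromosome 7, 731 genes (76.2%) lay below 0, and the median log2 fold change was -0.22, against 0.021 on chromosome 11. The next lowest chromosome median was -0.048, on chromosome 18, and the highest 0.10, on chromosome 15. In bins of 10 Mb with at least 20 tested genes, all 14 bins of chromosome 7 had a median below 0, against 95 of all 220 bins, and 11 of the 12 lowest bins were on this chromosome. Reads on chromosome 7 made up 7.07%, 6.87% and 6.91% of reads on genes in the YEJG libraries and 8.23%, 7.96% and 7.55% in the YEJH libraries. Every YEJH library was above every YEJG library. Such separation was not particular to chromosome 7, since the read shares of chromosomes 2, 5, 6, 10, 13 and 15 did not overlap between the lines either. Mean shares in YEJG and YEJH were 6.95% and 7.91% on chromosome 7, and 5.24% and 4.87% on chromosome 15.

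Set beside the other lines, YEJH stood apart on chromosome 7 and YEJG did not. Chromosome 7 genes in YEJH deviated from the mean of the 15 lines by a median of 0.24 on the log2 scale, whereas the other 14 lines lay between -0.064 and 0.076, YEJG at 0.025. The read share was 6.42% to 7.16% in the derived lines. Without the genes of chromosome 7, 992 genes were called, 356 higher and 636 lower, so 35.9% were higher in YEJG. List medians without chromosome 7 were -0.79 for the interferon and class I genes, -0.72 (from -0.69) for mesenchymal transition, -0.48 (from -0.50) for proteases and -0.16 for Wnt genes.

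The lowest single bin was elsewhere, at the end of chromosome 11 beyond 120 Mb. There 12 of 49 tested genes were lower in YEJG and 0 higher, with 45 below 0 and a median of -0.42. *Notum* (-1.26), the GTPase *Rac3* (-0.87), the tubulin cofactor *Tbcd* (-0.69), casein kinase *Csnk1d* (-0.52) and the NRF2 partner *Mafg* (-0.47) were among the 12. In contrast to chromosome 7, this bin was low in the derived lines too, with a median of -0.68 between YEJG-derived and YEJH-derived lines. The neighbouring bin from 110 to 120 Mb had a derived median of -0.70 as well, but a parental median of -0.036, with 14 of 113 genes higher and 22 lower.

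**Figure D4:**
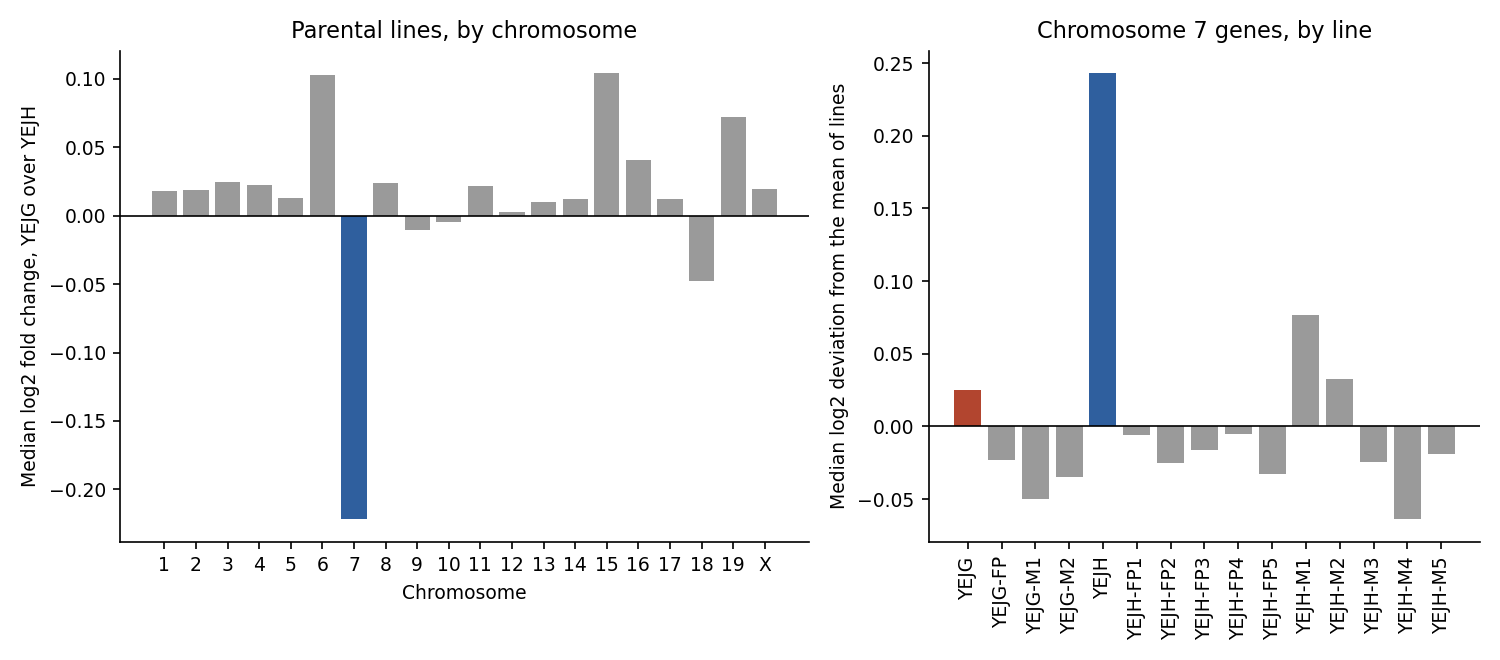
Left, median log2 fold change (YEJG over YEJH) of the tested genes of each chromosome, with chromosome 7 in blue at -0.22. Right, median log2 deviation of chromosome 7 genes from the mean of all 15 lines, with YEJH at 0.24 and the other 14 lines between -0.064 and 0.076.

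Lines derived from YEJG and YEJH share no library with the parental comparison and were compared by counts summed per line (3 against 10 lines) with site as covariate. In that comparison 40.8% of 15815 genes were called, 19.2% higher and 21.6% lower in YEJG-derived lines. Of the 378 genes at least 2-fold lower in YEJG, 373 were tested, and 151 (40.5%) were again lower and 57 (15.3%) higher. Of the 115 genes at least 2-fold higher, 109 were tested, and 32 (29.4%) were again higher and 30 (27.5%) lower. The share of lower genes again lower, 40.5%, stood above the 21.6% over all genes, while the higher genes were called in either direction at similar shares.

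Among the leading genes, *Ulbp1* was low in every YEJG-derived line, with 20.4 to 83.7 normalised read counts against 393 to 595 in YEJH-derived lines (log2 fold change -3.64, SE 0.29, adjusted p = 3.23e-06, edgeR). *Npnt* (-2.85, adjusted p = 0.000396), *Adgre5* (-4.32, adjusted p = 0.00142), *Enpp1* (-1.91, adjusted p = 3.23e-05), *Adgrg3* (-3.29, adjusted p = 0.000652) and *Oasl1* (-2.45, adjusted p = 0.00023) did not overlap between the 2 sets of lines either. Of the higher genes, *Itgb7* (3.92, adjusted p = 0.000543) and *Ak4* (1.59, adjusted p = 7.37e-05) were again higher without overlap, and *Tubb3* (2.32, adjusted p = 0.0104) and *Gab1* (0.32, adjusted p = 0.048) were again called higher. In contrast, *Dok2* was lower in the YEJG-derived lines without overlap (-1.84, adjusted p = 0.000419), and *Il18r1* was lower as well (-1.23, adjusted p = 0.0277). *Gprc5c* (-2.89) and *Kctd12b* (-3.80) were again called lower. Not called in the derived lines were *Wnt10a* (1.47), *Tgm1* (0.94), *Acan* (0.62), *Shox2* (-0.40) and *Krt6a* (-1.01) of the higher genes. Of the lower genes, *Mgmt* (-0.48), *Dbn1* (-0.33), *Nes* (-0.12) and *Wtip* (-0.11) were not called there.

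By group, 8 of the 18 interferon and class I genes were again lower (*H2-D1*, *Ifih1*, *Ifit1*, *Isg15*, *Oasl1*, *Oasl2*, *Rsad2* and *Sting1*), and *Gbp2*, *Irf1* and *Rigi* were higher. These counts stand beside 21.6% lower and 19.2% higher over all genes. Among the genes at least 2-fold lower in YEJG 40.5% were again lower, and 8 of 18 lay near that share. The sets differ in threshold and overlap, since 13 of the 18 were at least 2-fold lower. Of the 10 lower protease-list genes 7 were again lower and 0 higher, and of the 9 lower Wnt genes 5 were again lower and 0 higher. None of the 6 lower genes of mesenchymal transition was again lower, and *Twist1*, *Twist2*, *Zeb1* and *S100a4* were higher. None of the 4 higher basal genes was again higher, and *Col17a1* and *Dsg3* were lower. *Upp1* was lower in YEJG-derived lines (-0.54, SE 0.13, adjusted p = 0.00545), with line averages of 298 to 410.5 against 371 to 586, which overlapped.

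**Figure D5:**
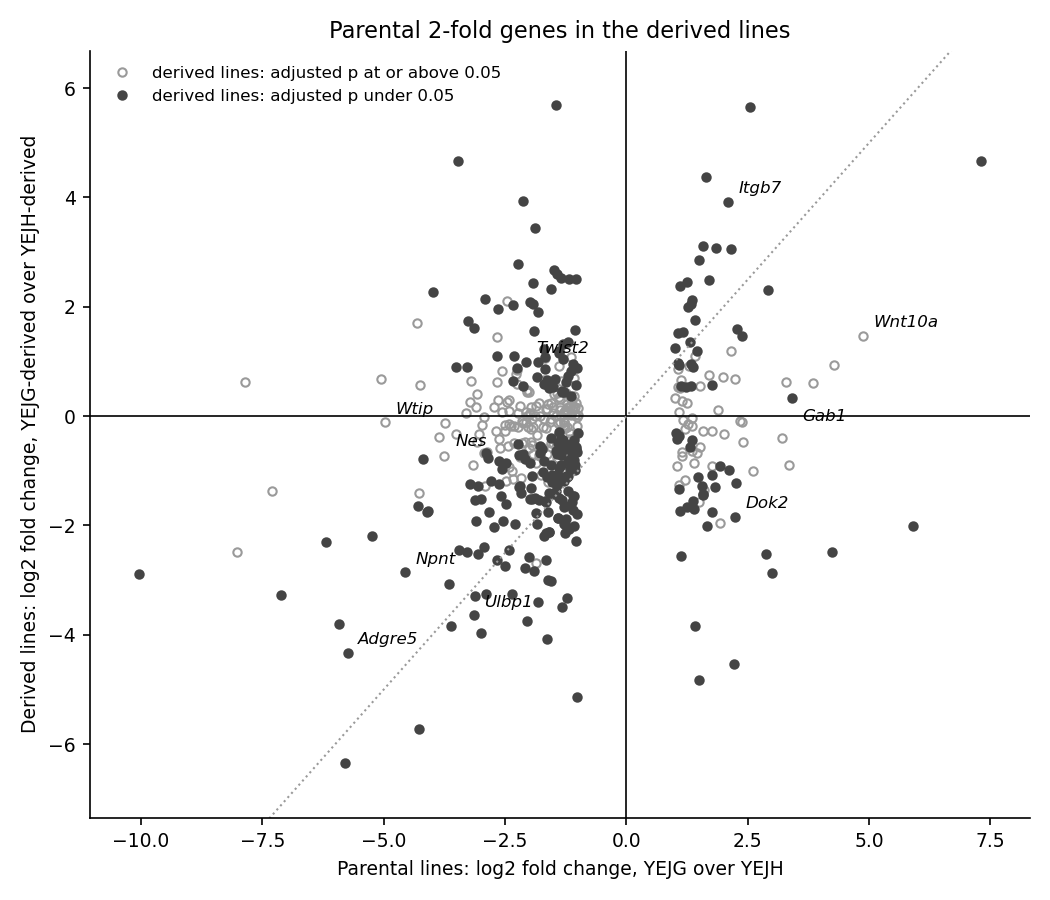
Log2 fold change between the parental lines (x axis) and between their derived lines (y axis) for the 482 genes that differed at least 2-fold between the parents and were tested in both, filled where adjusted p was under 0.05 in the derived lines. Points on the dotted line differ equally in both, *Ulbp1* lies near it, and *Wtip*, *Nes* and *Gab1* lie near 0 on the y axis. Fitted values of genes with no read in one parent depend on the prior count of the fit.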

How the data were processed

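The table holds the unnormalised gene counts that the authors deposited for 45 libraries, prepared with a TruSeq kit that does not mark strand and sequenced on a NextSeq500. The submitters' processing notes name FastQC, HISAT2, SAMtools 1.2 and HTSeq, and the build GRCh38, although the gene identifiers are those of mouse. The counting mode and the annotation release are not given in the sources used here. Entries that name no gene held 33.8% to 36.0% of all entries in the 6 parental libraries and were left out of library sizes. Of 54838 genes, 50764 (92.6%) matched GENCODE M39 on GRCm39, which gave names, positions and exon overlap.

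Counts were filtered with filterByExpr, scaled by TMM and tested with edgeR 4.0.16 (R 4.3.3), with library run and line as terms, Benjamini-Hochberg adjustment over all genes tested and a threshold of 0.05. Normalised read counts are counts divided by TMM factor and library total, times the mean library size. Standard errors were derived from the log2 fold change and its F statistic. Depth of 11357791 to 16346850 reads limits genes with few reads, for which exact 95% intervals cover counting error only. Libraries of a line differed by more than sampling noise.

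With run removed over all 45 libraries, the 3 same-numbered pairs of YEJG and YEJH libraries correlated at 0.35, 0.13 and 0.38 across genes. Pairs with other numbers lay between -0.34 and -0.025. Before run was removed, the same-numbered pairs, each of 1 run A and 1 run B library, stood at -0.32, -0.87 and -0.32. Over all lines the mean was 0.12 for the same number and -0.059 for other numbers. The number was therefore also fitted as a block. Derived lines were summed per line and fitted with site. The difference between the parental and the derived contrast was tested in 1 fit over the 15 lines, in which each lone parental line is assumed to vary like the derived lines. The tests were checked on simulated counts.

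Named were the 12 largest differences in each direction among called protein-coding genes with a mean of at least 50 normalised read counts, no overlap between lines and 1 direction in both runs, up to 2 genes per list and direction with a mean of at least 20, *Upp1*, *Upp2* and the label checks. Named after seeing their values were other list members, the genes with 0 reads and those at the end of chromosome 11. Single genes that these rules name are not all reported here. The comparison and its gene lists were chosen with earlier results of these data known. Alternatives used DESeq2 1.42.0, limma 3.58.1 with voom, other normalisations, no filter, other covariates, single runs, all 45 libraries and each library left out. Fits of a single run held all its libraries, derived lines included. They took the spread mostly from derived lines, since 1 parental line has only 1 library in each run. Figures were drawn with Python 3.11.15 and matplotlib 3.10.9.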

Additional observations from a re-analysis of the deposited data

Results flagged for a closer look

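For 9 of the 82 named genes tested, the contrast of YEJG with YEJH in the parental lines and in the lines derived from them differed past the threshold in a fit over 15 lines (edgeR, adjusted p under 0.05 over 15560 genes, of which 366 passed). The fit has 1 parental line per origin, whose spread is taken from the derived lines, and most of these genes were named for a large parental difference, which favours such a gap, so the values are a description. Values are the parental minus the derived log2 fold change.

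*Gab1* differed by 3.08 (SE 0.28, adjusted p = 0.000402), since derived lines held 123 to 178 normalised read counts from YEJG and 101 to 149 from YEJH. The signalling adaptor *Dok2* differed by 3.98 (SE 0.63, adjusted p = 0.0083), as its derived contrast was -1.84, and the homeobox gene *Shox2* by 3.52 (SE 0.71, adjusted p = 0.0252). In the sterol enzyme *Lss* (1.28, SE 0.21, adjusted p = 0.0107) and the hemidesmosome collagen *Col17a1* (2.77, SE 0.65, adjusted p = 0.0413), the parental gene was higher in YEJG and the derived lines were called lower.

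On the other side, *Wtip* differed by -4.80 (SE 0.92, adjusted p = 0.0199) and *Nes* by -3.66 (SE 0.81, adjusted p = 0.0341), with derived contrasts of -0.11 and -0.12. *Nes* averaged 653 to 2535 normalised read counts in YEJG-derived lines and 847 to 2193 in YEJH-derived lines. *Tgfb1* differed by -1.48 (SE 0.29, adjusted p = 0.0224) and kept its direction in the derived lines (-0.69), while *Twist2* differed by -2.98 (SE 0.65, adjusted p = 0.032) and was called higher there (1.00). *Wtip* and *Tgfb1* lie on chromosome 7. Groups of 3 libraries were too small to test a single library against the others.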

How the results depend on the processing

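The direction of all 75 called named genes held under every alternative, which the requirement of no overlap among leading genes favours. Fewer stayed called with 1 library left out. Without YEJG library 1, 2 or 3 the number was 54, 24 or 51, and without YEJH library 1, 2 or 3 it was 75, 26 or 74. The number of genes called moved to 1883 without the expression filter, to 4132 with all 45 libraries in the fit, and to 2934 with the replicate block beside run. The blocked fit, made because same-numbered libraries correlated once run was removed, left 1 residual degree of freedom. It changed no call of a named called gene. The block without run gave 1410. Leaving out 1 library gave 45 to 1967 calls, the lowest being fits in which 1 run held a single line. Genes called at least 2-fold numbered 798 with all 45 libraries and 45 to 577 with 1 library left out. Added after seeing the data, the fit of all 45 libraries with the replicate block gave 4939 and 813, and the fit of all 45 libraries less 1 gave 3600, 3136 and 3788 calls without YEJG library 1, 2 and 3 and 4305, 3631 and 3562 without YEJH library 1, 2 and 3, of which 742, 743, 759, 818, 772 and 760 were at least 2-fold. DESeq2 called 1219, limma-voom 1058, RLE size factors 1052, upper-quartile scaling 999, library totals alone 1149, no run term 1523 and protein-coding genes alone 1153. The share of calls that were higher, 33.3%, was 47.2% with all 45 libraries, 42.1% with the block and 17.8% to 41.3% with 1 library left out. Of the interferon and class I genes 13 to 23 were lower in every fit but those without YEJG library 2 (1) or YEJH library 2 (0). The median of chromosome 7 ranged from -0.25 to -0.19 with 1 library left out. In the derived lines, the 183 genes called in the same direction numbered 163 to 187 and the 87 called in the opposite direction 66 to 126 with 1 YEJG-derived line left out, one of which has a library named for another line.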
